A study of Mus musculus with 2 samples.

Results

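The genes described here encode enzymes of glycolysis, the pentose phosphate pathway and the citric acid cycle, with the pyruvate dehydrogenase complex that joins glycolysis to the cycle and 2 enzymes of glycogen. They were chosen by name from a list of 39 genes, and 31 of them had a named probe set among the 15644 named genes of the array. RNA levels were read on 2 Affymetrix arrays, each of 1 colour, of primary hepatocytes, the parenchymal cells of the liver, from a male C57BL/6 mouse aged 9 weeks. After 24 h in culture, cells received 10 µmol/l pregnenolone 16α-carbonitrile (PCN), which activates the pregnane X receptor in rodents, or the vehicle dimethyl sulfoxide (DMSO) alone for 12 h. Each array carried RNA pooled from 3 samples of its group, so there was 1 array per group, no replicate and no test, and every difference below describes these arrays alone.

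Values are intensities made with GCRMA, a method that corrects array signal for background, and differences are on the log2 scale, PCN minus DMSO. A gene counted as measured where it reached a floor of 32 (5 on the log2 scale) in at least 1 array, which held for 30 of the 31 genes and for 6449 genes in all. All 12 named hepatocyte markers were measured in both arrays, with albumin (Alb) at 21685 with DMSO and 21383 with PCN. Of these markers, 3 were higher and 9 lower with PCN, where 57.6% of all measured genes were higher and 42.4% lower. Among the 9 was Asgr1, an asialoglycoprotein receptor gene, at 551 and 406, a log2 difference of -0.44. Hnf4a and Ahsg differed by -0.21 and -0.15, and the other lower markers by -0.02 (Ttr) to -0.05 (Apob). Of the named markers, 7 of 9 for Kupffer cells and leukocytes, 6 of 8 for endothelial cells, 7 of 9 for stellate cells and fibroblasts and 3 of 5 for bile ducts were under the floor in both arrays. The summed intensity went from 3364 to 3484 for the Kupffer cell and leukocyte list, where Cd68 and Cd14 made up nearly all of it, and from 146 to 160 for the endothelial list. It went from 447 to 401 for the stellate cell list and from 310 to 333 for the bile duct list, where Krt19 differed by 0.40 and Sox9 by -0.42. The part of such cells in the differences below was not tested, and in RNA from whole cultures fewer cells of a type and less RNA per cell cannot be told apart. The 40 bacterial and phage control probe sets past the floor differed by -0.04 on average on the log2 scale, with an SD of 0.11, a spread that leaves out differences between cultures.

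Glycolysis splits glucose into pyruvate, and the pentose phosphate pathway branches from its first intermediate to make NADPH and ribose. Pyruvate enters mitochondria and is turned into acetyl-CoA by pyruvate dehydrogenase, which the kinases of the PDK family switch off by phosphorylation, and the citric acid cycle then oxidises the acetyl group. Hepatocytes can run the upper and lower parts of glycolysis backwards to make glucose, and they carry liver forms of several enzymes next to forms found in most tissues.

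The members with the largest differences towards lower intensity with PCN were Pdk2, Gckr, Pklr and Khk, and the 250 bases before a transcription start of each are shown because these 4 genes were lower together. The sequences are those of RefSeq on build GRCm38.p6, 5′ to 3′ on the gene's strand. Pdk2 and Pklr each have 2 listed starts, of which the upstream one is shown for Pdk2 and the downstream one for Pklr, and the arrays do not show which start was used. Capitals mark matches, on both strands, to the motifs searched. The windows shown for Pdk2 and Pklr are those with matches, and the windows of their other starts held none.
Pdk2, chr11:95041372-95041621, minus strand: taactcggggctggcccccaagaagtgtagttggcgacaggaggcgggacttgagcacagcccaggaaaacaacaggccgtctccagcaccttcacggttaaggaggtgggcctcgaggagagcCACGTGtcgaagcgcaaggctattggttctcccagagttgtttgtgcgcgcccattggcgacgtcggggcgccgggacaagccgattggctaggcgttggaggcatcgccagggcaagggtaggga
Gckr, chr5:31297313-31297562, plus strand: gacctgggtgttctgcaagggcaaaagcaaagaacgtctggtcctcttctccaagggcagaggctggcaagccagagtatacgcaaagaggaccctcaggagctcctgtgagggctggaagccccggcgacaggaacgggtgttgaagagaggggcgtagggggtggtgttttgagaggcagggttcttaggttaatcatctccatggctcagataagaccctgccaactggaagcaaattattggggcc
Pklr, chr3:89136373-89136622, plus strand: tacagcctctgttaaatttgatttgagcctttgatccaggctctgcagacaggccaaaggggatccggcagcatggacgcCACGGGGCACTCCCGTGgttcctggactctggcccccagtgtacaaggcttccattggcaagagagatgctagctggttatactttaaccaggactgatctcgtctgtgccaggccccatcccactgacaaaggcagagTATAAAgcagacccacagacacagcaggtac
Khk, chr5:30921309-30921558, plus strand: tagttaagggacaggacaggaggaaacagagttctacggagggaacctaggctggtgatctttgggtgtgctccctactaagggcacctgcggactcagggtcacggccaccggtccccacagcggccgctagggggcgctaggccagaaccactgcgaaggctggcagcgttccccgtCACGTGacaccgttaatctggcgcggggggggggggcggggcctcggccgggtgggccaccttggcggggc

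The motifs searched were the hypoxia response core ACGTG, the E-box CACGTG (which contains that core), the TATA box TATAAA, a forkhead site TGTTTAC, a direct repeat of AGGTCA with any 1 base between and a carbohydrate response element, CACG and CGTG with any 9 bases between. The Pklr window held the carbohydrate response element from 170 to 154 bases before the start, as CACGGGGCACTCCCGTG, and a TATA box from 31 to 26 bases before it. This element is the known binding site of ChREBP, the glucose-responsive factor encoded by Mlxipl. It was found in 0.219% of the 32851 windows of all genes and in no other of the 58 windows of the 37 members that have one. The Pdk2 and Khk windows each held 1 CACGTG, which was found in 6.02% of all windows and in 7 of the members' 58 (12.1%), several of which overlap. Among those were windows of Ogdh, which was level, and of Pfkfb3, which was 1.22-fold higher with PCN, both not far above the floor. The motif thus also lay in windows of members that were not lower, and any part of it in the differences was not tested. Its core ACGTG was in 34.5% of the members' windows and 16.6% of all, and the Gckr window held none of the motifs. The forkhead site and the direct repeat were in none of the members' windows, against 3.17% and 0.0335% of all windows. These are matches of letters, not measured binding.

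Across the 30 measured members the PCN array was higher in 17 and lower in 13, with a median log2 difference of 0.01 beside 0.03 over all measured genes. Of all 6449 genes, 57.6% were higher and 42.4% lower, so this split was close to that of the array as a whole. It moved with the scaling, to 12 higher and 18 lower of the members with centring on the median of all genes and to 23 and 7 with centring on the control probe sets, since most members lay near 0. A size of 0.32 on the log2 scale, a ratio of 5 to 4, was used to count differences. Past it, 4 members were lower, or 13.3% of them, where 6.17% of all measured genes were, and 2 members were higher, or 6.67%, where 5.27% of all were. Lower by that size were Pdk2, Gckr, Pklr and Khk, and higher were Hk1 and Aco1. Pdk2 alone passed 1.5-fold, a size reached by 1.94% of all measured genes, and it passed 2-fold as well, which 0.326% did. The floor keeps some dim genes from reaching such sizes, which lowers these shares. The remaining 24 members lay within 0.32 either way. Aco1 and Khk were at the edge of this size: Aco1 dropped below it with quantile normalization, median centring or the loess trend removed, and Khk with centring on the control probe sets, which put Pfkfb3 past it.

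The medians of the 3 pathways were close together and close to that of all genes. The median log2 difference was 0.01 over 10 measured glycolysis genes, 0.04 over 3 of the pentose phosphate pathway and 0.002 over 10 of the citric acid cycle. The medians differed from each other by 0.04 or less. Glycolysis genes ran from -0.48 to 0.42, citric acid cycle genes from -0.25 to 0.33 and the 3 pentose phosphate genes from 0.01 to 0.07. With the other genes of each pathway added, the ranges were -0.49 to 0.42 over 19 genes, -0.25 to 0.33 over 23 and -0.29 to 0.59 over 11, so the narrow range of the pentose phosphate members did not hold for the wider pathway. The glycolysis median thus stood for a list with members well apart on either side of it.

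**Figure D1:**
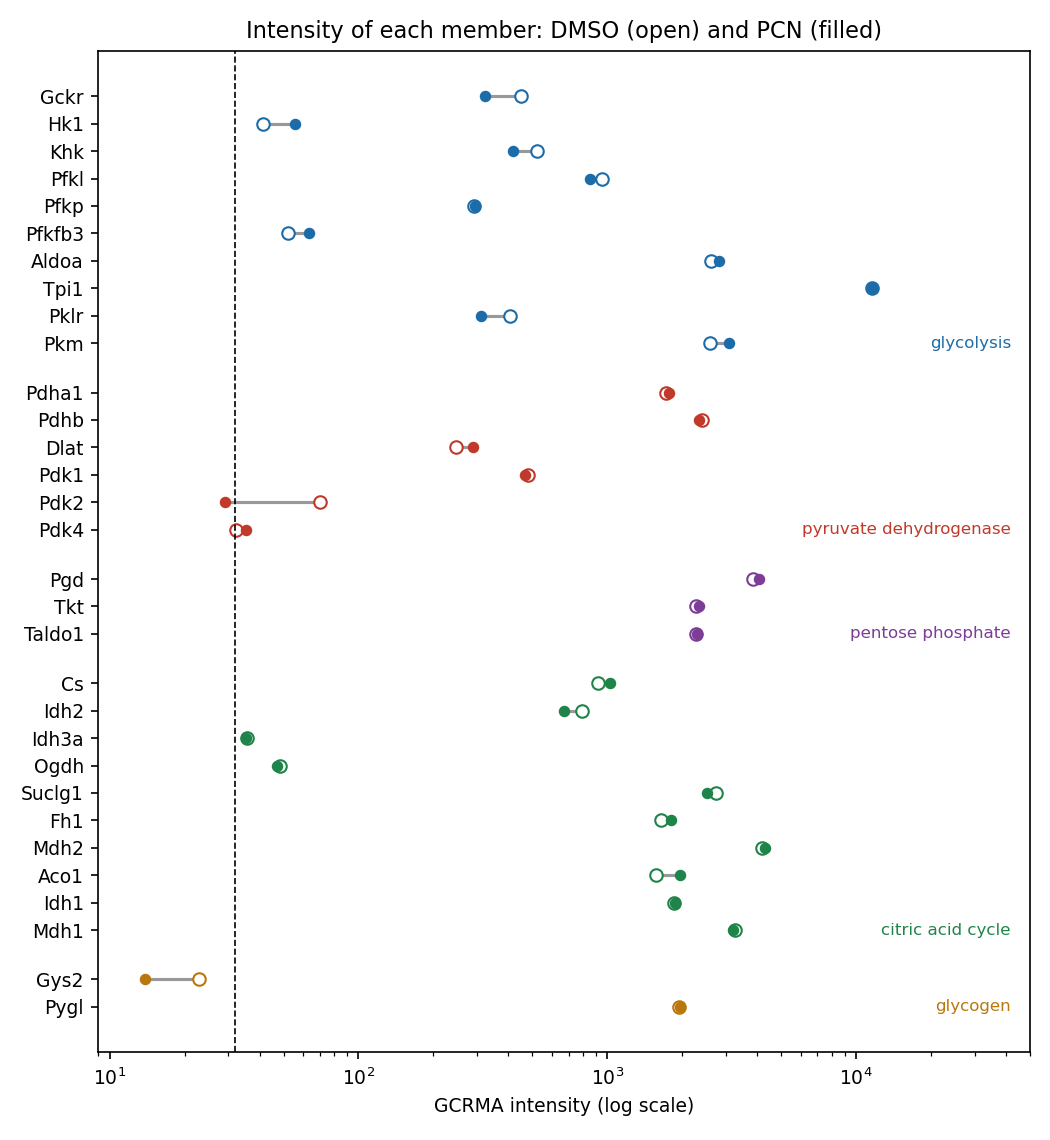
GCRMA intensity (log scale) of the 31 members with a named probe set in the DMSO array (open circles) and the PCN array (filled circles), 1 array each, by pathway; the dashed line is the floor of 32. Pdk2 goes from 69.7 to 29.1 across the floor, while most other pairs of circles touch or overlap.

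The genes at the entry of glycolysis differed in direction. Gckr encodes the glucokinase regulatory protein, which holds the liver's glucokinase inactive in the nucleus. It had an intensity of 452 with DMSO and 323 with PCN, 1.40-fold lower, and ranked 143 from the lowest difference among all measured genes. Khk encodes ketohexokinase, which phosphorylates fructose, and was at 522 and 417, a log2 difference of -0.32. Hk1, a hexokinase of most tissues, was in contrast at 41.4 with DMSO and 55.5 with PCN, 1.34-fold higher, at an intensity not far above the floor; a floor of 6 left it unmeasured. Hk2, the other listed hexokinase, had no named probe set.

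In the upper part of the pathway, differences were smaller. Pfkl, the liver form of phosphofructokinase, the committed step of glycolysis, went from 953 to 855, a log2 difference of -0.16. Pfkp, the platelet form, was at 291 and 295. Pfkfb3, which makes the activator of phosphofructokinase, fructose-2,6-bisphosphate, was at 51.9 and 63.4, 1.22-fold higher and the nearest member under the size of 0.32. Aldolase A (Aldoa) was at 2612 and 2803, a difference of 0.10. Gpi1 and Pfkfb1 had no named probe set.

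Triose phosphate isomerase (Tpi1) was the brightest member, with 11652 with DMSO and 11625 with PCN, a difference of -0.003. Further down, Pgk1, Pgam1, Eno1 and Ldha had no named probe set. The step between Tpi1 and Pgk1 is catalysed by glyceraldehyde-3-phosphate dehydrogenase, which the array reads through 3 control probe sets. These had intensities of 17300, 17569 and 19311 with DMSO and 17295, 17682 and 18915 with PCN, so their differences ran from -0.03 to 0.01. At such high intensities array signal can be compressed.

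Pyruvate kinase, the last step of glycolysis, is encoded by 2 genes that differed in direction. Pklr, the gene of the liver and red cell forms, went from 406 with DMSO to 309 with PCN, 1.31-fold lower. Pkm, the gene of the forms of muscle and most other tissues, went from 2594 to 3091, 1.19-fold higher with a log2 difference of 0.25. The difference of Pkm exceeded that of Pklr by 0.65, so the ratio of their signals shifted by 1.56-fold towards Pkm. Among phosphofructokinases the shift towards Pfkp over Pfkl was smaller, 0.18. Pfkp itself became slightly lower with quantile normalization, median centring or the loess trend removed. The muscle form Pfkm, near the floor, was further down than Pfkl, with a difference of -0.43. Mlxipl, the gene of ChREBP, was at 348 and 325, a difference of -0.10, under the SD of the control probe sets. Any part of it in the Pklr difference was not tested.

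**Figure D2:**
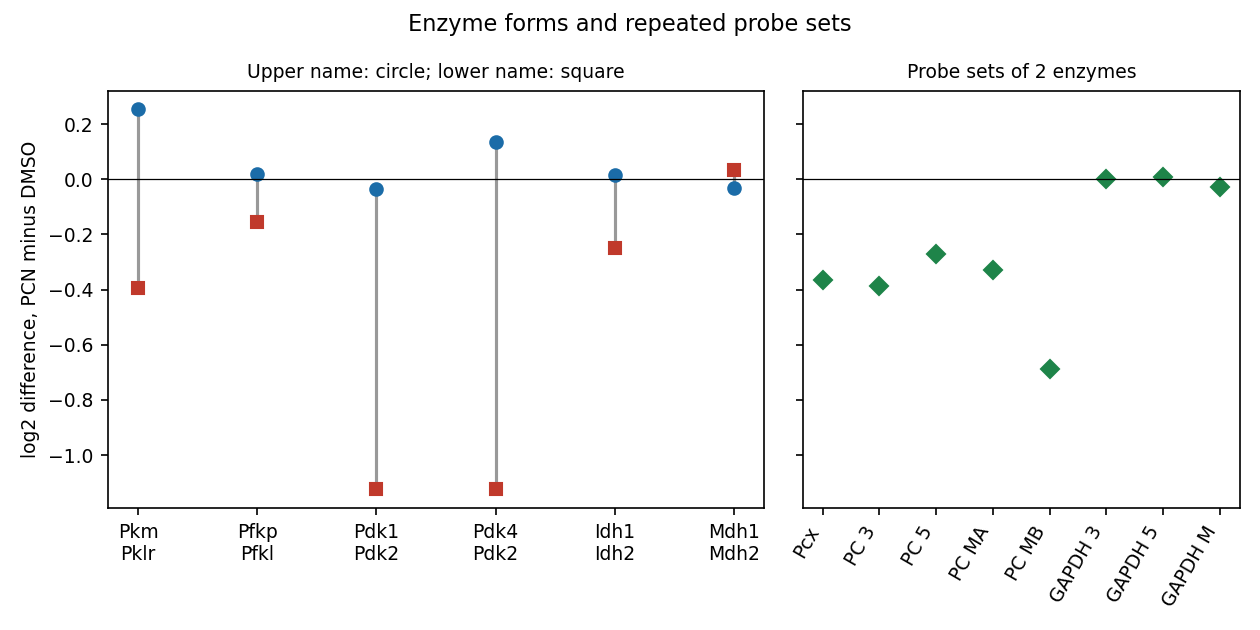
Log2 difference, PCN minus DMSO, of paired enzyme forms (left, the upper name a circle and the lower name a square) and of repeated probe sets for pyruvate carboxylase (Pcx and 4 control sets, PC) and GAPDH (3 control sets) (right); the Pdk2 value is a bound. Pkm and Pklr lie on opposite sides of 0, 0.65 apart, the pyruvate carboxylase sets all lie below 0 and the GAPDH sets lie near it.

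Pyruvate dehydrogenase control held the largest difference of the list. Pdk2, a kinase that inactivates the complex and is abundant in liver, had an intensity of 69.7 with DMSO and 29.1 with PCN. The second value is under the floor, so Pdk2 was at least 2.18-fold lower, and 2.40-fold lower with values as deposited. Among the 2412 measured genes with a mean log2 intensity under 7, as Pdk2 has, 10 (0.415%), Pdk2 among them, were 2-fold or more lower. With this floor a gene under 6 on the log2 scale with DMSO cannot be counted as 2-fold lower, which lowers that share. The bound depends on the floor: with a floor of 6 on the log2 scale it was at least 1.09-fold, because the DMSO value itself was close to that floor.

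The other kinases differed by far less. Pdk1 was at 478 with DMSO and 467 with PCN, a difference of -0.04. Pdk4, the kinase induced by fasting, was at 32.0 and 35.2, close to the floor in both arrays, a difference of 0.13. With the floor of 32, the difference of Pdk1 exceeded that of Pdk2 by at least 1.09, a bound that shrinks with a higher floor as that of Pdk2 does, and Pdk4 was too near the floor for such a comparison. Pdk3, from the wider list of pathway genes, was under the floor at 13.0 and 13.3.

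The catalytic subunits of the complex stayed within 0.32 on the log2 scale. Pdha1 and Pdhb, which form the decarboxylating component, were at 1730 and 1774 and at 2400 and 2338 with DMSO and PCN. Dlat, the acetyltransferase component, was at 247 and 290, a difference of 0.23. Of the genes not on the member list, Pdhx, the protein that anchors the dihydrolipoamide dehydrogenase to the core of the complex, was at 65.1 with DMSO and 104 with PCN, 1.59-fold higher. It ranked 27 from the highest difference of all measured genes. Dld, that dehydrogenase, was at 366 and 396, a difference of 0.11. The phosphatase genes that reverse the kinases' action gave no difference, since neither array reached the floor for Pdp2 or Pdpr and Pdp1 had no named probe set.

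**Figure D3:**
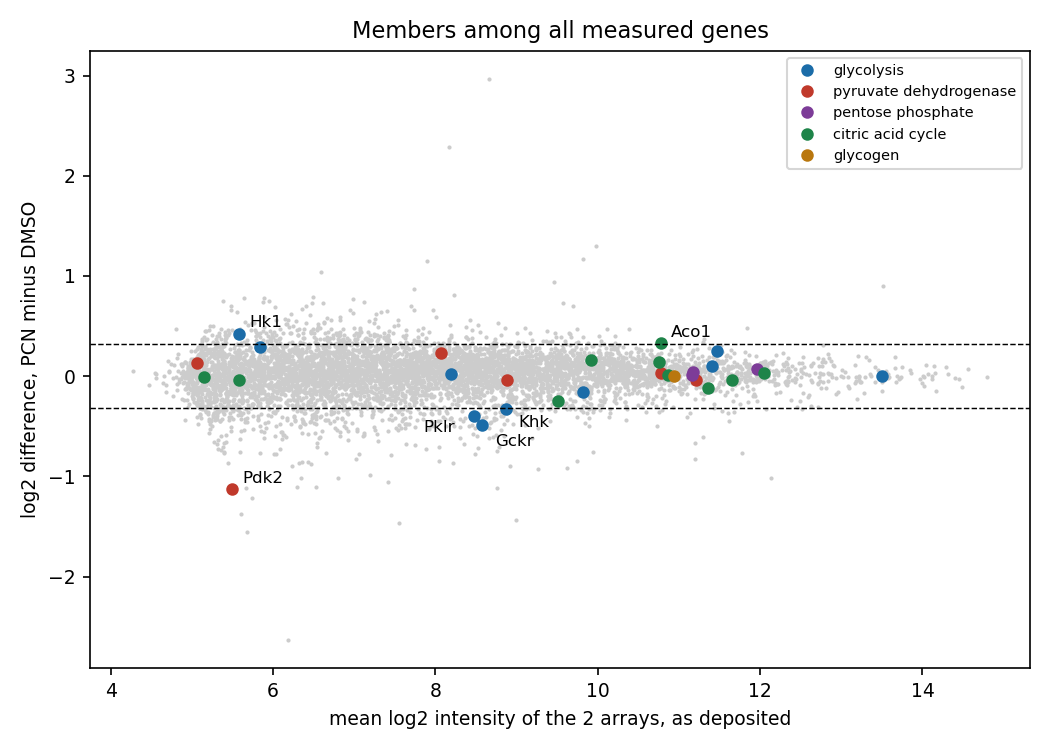
Log2 difference, PCN minus DMSO, against the mean log2 intensity of the 2 arrays for all 6449 measured genes (grey) and the 30 measured members (coloured by pathway); dashed lines mark 0.32 either way. Pdk2, whose value is a bound, lies well below the lower line, and Aco1 is the 1 labelled member among the bright genes on the right.

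The measured pentose phosphate genes were nearly level between the arrays. Pgd, 6-phosphogluconate dehydrogenase of the oxidative branch that makes NADPH, was at 3874 and 4073, a difference of 0.07. Transketolase (Tkt) was at 2271 and 2333 and transaldolase (Taldo1) at 2277 and 2297, the pair that interconverts sugar phosphates in the non-oxidative branch. All 3 were slightly higher with PCN by amounts under the SD of the control probe sets, and Taldo1 became lower with quantile normalization, median centring or the loess trend removed. G6pdx, the entry enzyme, had no named probe set. Among 8 other measured genes of the pathway, 5 were higher and 3 lower (median 0.06), where 57.6% of all measured genes were higher. Rpia, which converts ribulose 5-phosphate to ribose 5-phosphate, was at 92.3 with DMSO and 139 with PCN, a difference of 0.59. Ribokinase (Rbks) was at 59.1 and 48.2, a difference of -0.29, and Prps1l3, a phosphoribosyl pyrophosphate synthetase-like gene, at 631 and 723, a difference of 0.20.

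The citric acid cycle genes were evenly divided, with 5 higher and 5 lower, where 57.6% of all measured genes were higher. The split was 3 and 7 with median centring, where 49.7% of all genes were higher. It was 8 and 2 with centring on the control probe sets, where 66.3% were. By size, 9 of 10 lay within 0.32. The exception was Aco1, which encodes a cytosolic aconitase that also serves as an iron regulatory protein. It went from 1567 with DMSO to 1966 with PCN, a log2 difference of 0.33. Of 1068 genes with a mean log2 intensity of 10 or more, 12 (1.12%) were higher by 0.32 or more and 2.15% lower. Idh1, the cytosolic NADP-dependent isocitrate dehydrogenase, was at 1848 and 1867, and cytosolic malate dehydrogenase (Mdh1) at 3271 and 3197.

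Of the mitochondrial enzymes, Idh2, the mitochondrial counterpart of Idh1, had the largest difference, from 795 to 670, or -0.25. Its difference was 0.26 below that of Idh1, while Mdh1 and Mdh2 were 0.07 apart. Citrate synthase (Cs), the entry of the cycle, was at 916 and 1025, a difference of 0.16, and fumarase (Fh1) at 1641 and 1804, a difference of 0.14. Suclg1, a succinyl-CoA ligase subunit, was at 2726 and 2520, a difference of -0.11, and Mdh2 at 4200 and 4297, a difference of 0.03. The dim members Idh3a, at 35.6 and 35.3, and Ogdh, at 48.3 and 47.2, differed by -0.01 and -0.04. Without the 3 cytosolic enzymes the median of the cycle was -0.01.

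The other genes of the cycle were as level as the members. Of 13 measured, 7 were higher and 6 lower, where 57.6% of all measured genes were higher. With median centring 4 were higher and 9 lower, where 49.7% of all were higher. None passed 0.32, where 6.17% of all were lower and 5.27% higher by that size. The median without rescaling was 0.02. Sdhc, a membrane anchor of succinate dehydrogenase, was at 901 and 757, a difference of -0.25, while the catalytic subunit Sdha was at 2270 and 2240. Sdhaf2, an assembly factor of that enzyme, was at 252 and 283, a difference of 0.17, and Idh3g at 910 and 868, a difference of -0.07.

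**Figure D4:**
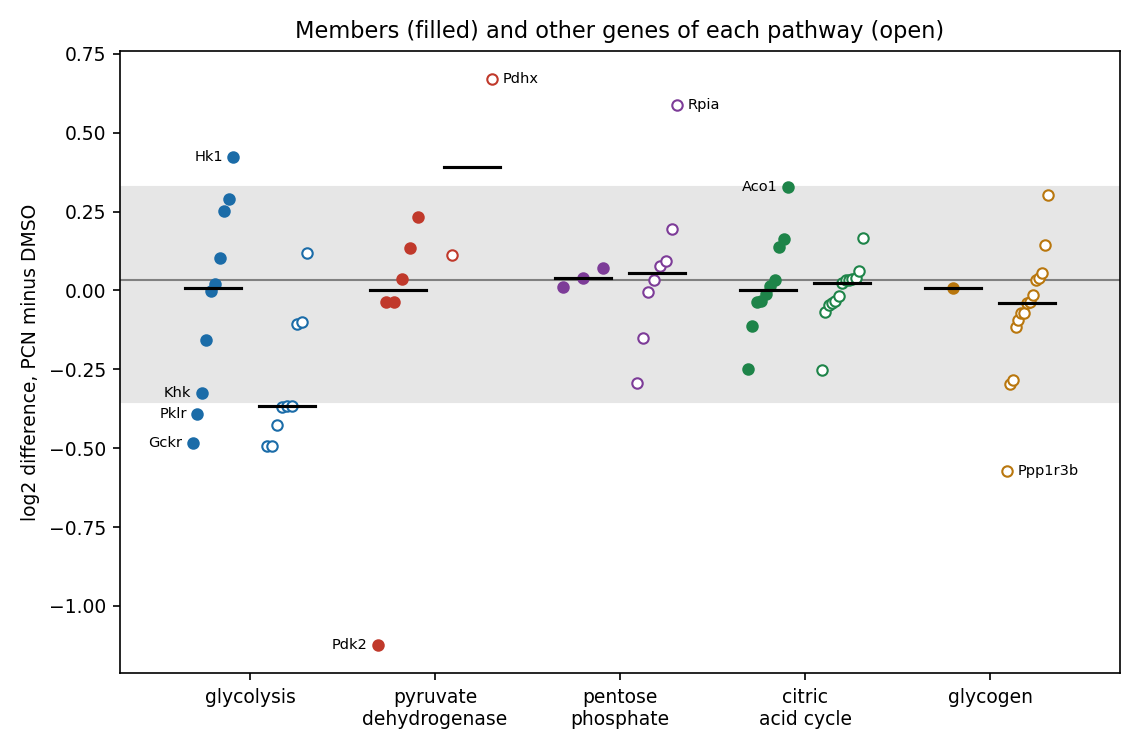
Log2 difference, PCN minus DMSO, of measured members (filled) and of the other measured genes of each pathway (open), with black bars at the medians; the grey band spans the 5th to 95th percentile of all measured genes, -0.35 to 0.33, around their median of 0.03. The other genes of glycolysis and gluconeogenesis have a median of -0.37, while all citric acid cycle genes lie within the band or at its edge and Rpia, at 0.59, lies above it.

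The measured further enzymes of glycolysis and gluconeogenesis were mostly lower with PCN, where the glycolysis members were mixed, with 5 higher and 5 lower. Of 9 measured, 8 were lower with PCN under every scaling tried, where 42.4% of all measured genes were lower without rescaling. The median log2 difference was -0.37 beside 0.01 for the glycolysis members and 0.03 for all genes. Past 0.32, where 6.17% of all measured genes were lower and 5.27% higher, 6 of these were lower and none higher. They were Fbp1 and Fbp2, which reverse the phosphofructokinase step, the muscle phosphofructokinase Pfkm, the fructose enzyme triokinase (Tkfc), the D-lactate dehydrogenase Ldhd and pyruvate carboxylase (Pcx). Fbp1, the liver form, went from 2007 to 1425, 1.41-fold lower, and Fbp2 from 73.9 to 57.3. Tkfc, which acts in fructose breakdown after Khk, went from 78.0 to 55.4, also 1.41-fold lower, so that both of these fructose genes were lower. Pfkm was at 45.8 and 34.1, 1.34-fold lower and near the floor, and Ldhd at 256 and 198, 1.29-fold lower. The list was written with earlier results of these data known, Fbp1 among them, and its 13 genes under the floor gave no difference. Among those were the main gluconeogenic genes of liver, Pck1 at 6.6 with DMSO and 3.7 with PCN and G6pc at 4.5 and 5.6. With no floor, which takes those in, the list's median was -0.10, and of 22 genes 14 were lower and 8 higher.

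Pyruvate carboxylase, which sends pyruvate to oxaloacetate rather than acetyl-CoA, was read several times on each array. The probe set named Pcx was at 122 with DMSO and 94.2 with PCN, 1.29-fold lower. The 4 control probe sets for this gene, which may share probes with it, went from 445 to 340, from 53.3 to 44.2, from 74.0 to 58.9 and from 143 to 88.7. Each was lower with PCN, with log2 differences of -0.39, -0.27, -0.33 and -0.69. For β-actin, the control sets for the 3′ end and the 5′ end both differed by 0.04, at intensities from 13864 to 21516 where signal can be compressed. The 3 sets for 18S ribosomal RNA were dim, and their part in the differences here was not tested. The 3′ set was under the floor in both arrays at 27.6 with DMSO and 20.7 with PCN, so no difference is given. The 5′ set was at 49.5 and 31.1, under the floor with PCN, and differed by -0.67 as deposited. The remaining set was at 69.6 and 55.2, a difference of -0.34.

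For glycogen, the liver phosphorylase Pygl, which breaks it down, was at 1952 with DMSO and 1961 with PCN. Gys2, the liver glycogen synthase, was under the floor in both arrays at 22.8 and 13.9, so no fold is given. Of 15 other measured glycogen genes, 5 were higher and 10 lower, where 57.6% of all measured genes were higher and 42.4% lower. With quantile normalization 3 were higher and 12 lower, where 53.7% of all were higher. Their median without rescaling was -0.04. Lower by 0.32 or more was 1 of the 15, or 6.67%, close to the 6.17% of all measured genes. None was higher by that size, where 5.27% of all were. The lower gene was Ppp1r3b, which targets a phosphatase to glycogen, at 189 and 127. UDP-glucose pyrophosphorylase (Ugp2) was at 1872 and 1524, a difference of -0.30, and the phosphoglucomutase gene Pgm2 at 150.3 and 185, a difference of 0.30.

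Of 13 named transporters that feed these pathways, 7 were under the floor and 6 were measured, of which 3 were lower and 1 higher by 0.32 or more, where 6.17% and 5.27% of all genes were. The glucose transporter gene Slc2a2 was at 842 with DMSO and 311 with PCN and Slc37a4, which carries glucose 6-phosphate into the endoplasmic reticulum, at 338 and 207, 2.71-fold and 1.63-fold lower. Slc2a1, the glucose transporter gene of most tissues, was at 685 and 875, 1.28-fold higher, so that its difference exceeded that of Slc2a2 by 1.79. Of the monocarboxylate transporters, which carry lactate and pyruvate, Slc16a7 was at 69.7 and 47.8, 1.46-fold lower, and Slc16a1 at 108 and 116. The glucose transporter gene Slc2a8 was at 42.4 and 43.5. With 3 higher and 3 lower of 6 measured, the list's median of -0.25 lay between genes far apart, and it turned to 0.036 with a floor of 4.

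Of 16 measured regulators of carbohydrate genes, 8 were higher and 8 lower, around a median of -0.02, where 57.6% of all measured genes were higher. With median centring 6 were higher and 10 lower, where 49.7% of all were higher. By 0.32 or more, 2 were lower (12.5%) and 1 higher (6.25%), where 6.17% and 5.27% of all measured genes were. Gcgr, the receptor of glucagon, was at 54.9 with DMSO and 32.4 with PCN, 1.69-fold lower and close to the floor with PCN. Ppara, a fatty acid-sensing nuclear receptor, was at 377 and 266, 1.42-fold lower, and Myc, a growth factor-responsive transcription factor, at 784 and 1032, 1.32-fold higher. The remaining 13 lay within 0.32 on the log2 scale, among them Hif1a, the oxygen-regulated factor, at 575 and 681, and Foxo1, a target of insulin signalling, at 323 and 324.

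By intensity, the members past 0.32 were mostly outside the bright range. Of the 15 members with a mean log2 intensity of 10 or more, 14 lay within 0.32 and 1 was higher, where 1.12% of all genes in that range were higher by that size and 2.15% lower. Of the 9 between 7 and 10, 3 were lower by 0.32 or more, where 5.73% of all genes in that range were, and none was higher by that size, where 4.85% were. Of the 6 under 7, 1 was lower and 1 higher by that size, where 8.5% and 7.63% of all genes were. Genes such as Aldoa, Tpi1 and Pkm have relatives or pseudogenes of similar sequence, and signal from those cannot be separated here from that of the gene itself.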

How the data were processed

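The deposited intensities, on a linear scale by their range (1.13 to 28482), were made by the authors with GCRMA 2.2.0, per the submitters' processing notes. GCRMA brings arrays to a common distribution, so a change in total RNA cannot be seen. How probe sets were defined, and on which build, is not given in the sources used here. Members were the rows whose symbol in the platform table was on the list. Log2 values were taken (pandas 2.3.3, numpy 2.4.6, Python 3.11.15); a value under 5 in 1 array was raised to 5, giving a bound. No detection calls were used, and the floor is a choice. With 1 array per group, no test was made, array number limits the precision, and batch and treatment cannot be told apart. The procedure was tested on simulated data. All members are accounted for; of each other pathway list, genes past 0.32 (log2) and the 3 largest differences are named, and further genes were named after their values were seen. Members and lists were chosen with earlier results of these data known. Alternatives were other floors, scalings and sizes and a loess trend (statsmodels 0.14.6, fraction 0.3).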

Additional observations from a re-analysis of the deposited data

How the results depend on the processing

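All alternatives were planned except the restriction to brighter members and the control probe sets for pyruvate carboxylase and GAPDH, chosen after seeing the data. Of 235 member differences recomputed, 231 moved by less than the control probe set SD of 0.11, and no difference past 0.32 changed sign. The others were those of Pdk2, -1.26 with a floor of 4, with values as deposited or with no floor, and -0.12 with a floor of 6. This outcome was largely fixed in advance. Other floors and the deposited values leave a gene above the floor in both arrays unchanged, and centring shifts it by a constant under that SD. Only quantile normalization and the loess trend could move such a gene further. The count of members higher by 0.32 or more, 2 as reported, was 1 with a floor of 6, quantile normalization, median centring or the loess trend removed and 3 with centring on control probe sets, which added Pfkfb3. It was 0 at 1.5-fold and at 2-fold, and the 4 lower members became 1 at both sizes and 5 with a floor of 4 or no floor, which add Gys2 (-0.51 and -0.72). Aco1 left the count under those scalings, Hk1 and, from the lower count, Pdk2 with a floor of 6, and Khk left the lower count with centring on control probe sets. Of 116 medians, 8 moved by more than that SD and 29, most of them near 0, changed sign. The glycogen median was -0.25 with a floor of 4 and -0.35 with no floor, which add Gys2. The transporter median was 0.036, -0.12 and 0.031 with floors of 4 and 6 and with no floor. With no floor the median of the other glycolysis and gluconeogenesis genes was -0.10 and that of the other pyruvate dehydrogenase genes 0.19. Members and other genes together gave a glycolysis median of -0.16. Over all measured genes the median stayed between -0.001 and 0.07. No replicate could be left out. No paired analysis was possible because the groups hold 1 array apiece. Low signal limits Pdk2, Pdk4, Gys2, Hk1, Pfkfb3, Idh3a and Ogdh.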

Other observations

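Some forms of these enzymes known from muscle, brain or other tissues were measured, among them Pfkm and Fbp2 above. The aldolase gene Aldoc was at 323 with DMSO and 300 with PCN and the glycogen phosphorylase gene Pygb at 72.1 and 70.2. Several other such forms were under the floor in both arrays. The enolase gene Eno2 was at 3.6 with DMSO and 3.3 with PCN, the hexokinase gene Hk3 at 4.4 and 4.8, the muscle phosphoglycerate mutase gene Pgam2 at 5.4 and 6.0 and the lactate dehydrogenase gene Ldhb at 5.8 and 6.7. The muscle glycogen phosphorylase gene Pygm was at 4.5 and 3.9. Besides Pck1 and G6pc, Pck2, the mitochondrial form of phosphoenolpyruvate carboxykinase, was at 10.3 in both arrays, and the mitochondrial malic enzyme genes Me2 and Me3 were at 9.9 and 10.3 and at 4.6 and 4.9. Cytosolic malic enzyme (Me1), which makes NADPH, was in contrast bright and level at 2134 and 2193, as were ATP citrate lyase (Acly) at 938 and 960 and hexose-6-phosphate dehydrogenase (H6pd) at 3672 and 3916.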
